A study of Mus musculus with 13 samples.

Results

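RNA precipitated by J2 was compared with RNA precipitated by a control IgG in Yumm1.7 cells, a mouse melanoma line labelled wild type for genotype. J2 is a monoclonal antibody that binds double-stranded RNA. The members are 5 of the 13 libraries of the series, chosen by the antibody in their labels. They are 4 J2 libraries and 1 IgG library. Cells for the J2 libraries were given DMSO, ADAR1i-124 (10 µM, 12 h), 5-AZA-CdR (1 µM, 72 h), or 5-AZA-CdR together with ADAR1i-124, for which the labels state no dose of the inhibitor. ADAR1i-124 is the study's inhibitor of the RNA editing enzyme ADAR1, and 5-AZA-CdR inhibits DNA methyltransferases. The labels of the IgG library give no treatment. Of 54532 genes in the count table, 13829 reached a mean of 1 CPM (counts scaled by the sum of the library) over the 5 libraries and were compared.

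Double-stranded RNA forms in cells when a transcript holds a sequence and its reverse complement, or when both strands of a region are transcribed. ADAR1 turns adenosine into inosine in such duplexes. MDA5, PKR and OAS proteins sense such duplexes, and ZBP1 binds those in the left-handed Z form. By the study's methods, RNA was digested with DNase and the single-strand nuclease RNase I before precipitation. The control IgG shows which RNA is carried over without J2.

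Each condition is 1 library, so no gene could be tested. A permutation of 4 against 1 libraries cannot go below a one-sided p of 0.2. All 4 ratios of a gene share the IgG library, and a deviation of that library moves all of them together. The ± values are SDs over the 4 J2 libraries, which differ in treatment and are not replicates. The J2 libraries held 11767409 to 14396132 counts and the IgG library 15324595. A floor of 3 counts was worth 0.196 CPM in IgG and up to 0.255 CPM in J2. Where a gene differs among the treatments, the antibody and the unknown treatment of the IgG cells cannot be told apart. The defining melanocyte genes Tyr, Tyrp1, Dct, Slc45a2 and Gpr143 had no count in any of the 5 libraries. Mitf, the lineage's transcription factor, was at 14.5 CPM in IgG and 17.6 to 26.5 CPM in J2. Summed leukocyte markers were at 6.95 to 59.9 CPM in J2 and 17.0 CPM in IgG, keratinocyte markers at 0.657 to 2.38 against 2.61 CPM, and endothelial markers at 3.82 to 61.9 against 3.52 CPM. Adgre1 and Cd8a had no count. The leukocyte sum was mainly Cd68 and the endothelial sum mainly Cdh5, and the part of such markers in any ratio was not tested.

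Inverted repeats in transcripts that were at least 2-fold higher in all 4 J2 libraries are shown first, because both arms of each could pair within 1 molecule. Arms are read 5′ to 3′ on the strand of the transcript, from RefSeq GRCm38.p6 at GENCODE exons. Capitals mark the longest stretch of 1 arm that is the exact reverse complement of the other.
Gm36936 arm 1, chr9:72728665-72728729, plus strand: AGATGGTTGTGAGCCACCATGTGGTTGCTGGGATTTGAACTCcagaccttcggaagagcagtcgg
Gm36936 arm 2, chr9:72729579-72729643, plus strand: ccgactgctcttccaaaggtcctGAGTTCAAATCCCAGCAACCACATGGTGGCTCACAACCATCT
Gm45477 arm 1, chr3:90312498-90312556, plus strand: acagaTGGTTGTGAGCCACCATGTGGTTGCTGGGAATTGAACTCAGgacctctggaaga
Gm45477 arm 2, chr3:90316496-90316554, plus strand: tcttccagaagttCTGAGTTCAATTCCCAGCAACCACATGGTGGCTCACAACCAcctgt
Gm48890 arm 1, chr13:9328703-9328785, plus strand: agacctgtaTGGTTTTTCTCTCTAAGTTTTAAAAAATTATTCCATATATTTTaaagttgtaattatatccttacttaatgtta
Gm48890 arm 2, chr13:9330119-9330201, plus strand: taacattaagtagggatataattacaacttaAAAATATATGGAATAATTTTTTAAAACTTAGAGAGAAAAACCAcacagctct
9630050E16Rik arm 1, chr14:45487206-45487348, minus strand: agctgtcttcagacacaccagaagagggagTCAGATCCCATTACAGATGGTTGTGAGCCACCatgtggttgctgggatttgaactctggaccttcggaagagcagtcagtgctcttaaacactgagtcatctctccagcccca
9630050E16Rik arm 2, chr14:45485062-45485204, minus strand: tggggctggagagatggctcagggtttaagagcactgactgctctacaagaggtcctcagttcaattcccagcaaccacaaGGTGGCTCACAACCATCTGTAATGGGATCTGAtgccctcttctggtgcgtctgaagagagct
Neat1 arm 1, chr19:5834108-5834182, minus strand: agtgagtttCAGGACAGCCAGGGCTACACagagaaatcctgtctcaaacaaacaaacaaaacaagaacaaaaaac
Neat1 arm 2, chr19:5825862-5825936, minus strand: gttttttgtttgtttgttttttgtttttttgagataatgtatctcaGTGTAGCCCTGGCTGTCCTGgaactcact

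The exact stretch was 42 bases in Gm36936, whose arms of 65 bases pair over 95.4% of their length across a spacer of 849 bases. It was 41 bases in Gm45477, 43 in Gm48890, 32 in 9630050E16Rik and 20 in Neat1. In the same order, the spacers of these genes were 3939, 1333, 2001 and 8171 bases. Their arms pair over 94.9%, 95.2%, 90.2% and 82.7% of their length. The first arms of Gm36936, Gm45477 and 9630050E16Rik share a run of 33 bases, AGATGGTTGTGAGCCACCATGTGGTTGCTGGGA. On either strand it was in the exons of 297 of 13817 genes searched (2.15%), and of 15 of the 209 TEC genes described below (7.18%), from which it was taken. All of these arms lie in sequence that the genome masks as repeats, as do those of Neat1. In Gm48890 the masked share of the arms was 37.3%. Gm36936 lies in an intron of Nedd4, Gm45477 in one of Gatad2b and Gm48890 in one of Dip2c. These examples were chosen after their values were seen.

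Gm36936 was at 5.74 CPM in IgG and 30.7, 22.3, 18.2 and 28.1 CPM in J2. Here and below, J2 values are given in the order DMSO, ADAR1i-124, 5-AZA-CdR, both. Gm45477 was at 2.54 CPM in IgG and 17.8, 15.4, 10.5 and 19.04 CPM in J2. All J2 values of both genes lay above IgG, at a mean log2 ratio of 1.99 ± 0.33 for Gm36936 and 2.37 ± 0.37 for Gm45477 (SD, n = 4). In total RNA, Gm36936 was at 24.98, 16.4 and 34.5 CPM in the same order without the combination, and Gm45477 at 11.5, 9.76 and 15.5 CPM. The total RNA of both genes thus stood near J2 and above IgG.

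Few genes stood apart from IgG by a wide margin, and those that did were mostly higher in J2. At least 2-fold higher in all 4 J2 libraries were 367 genes (2.65% of those compared), and 35 (0.253%) were that far below IgG. By any amount, 3661 genes were higher in all 4 (26.5%) and 3116 lower (22.5%). The other 7052 were not on 1 side in all 4, which includes genes with a library equal to IgG. Beyond the 95% exact binomial interval of each ratio, which covers counting error only, 1590 were higher in all 4 (11.5%) and 1624 lower (11.7%). These intervals are of the ratio of CPM with nothing added, unlike the log2 ratios, which have 0.5 CPM added. Of the 6777 genes on 1 side by any amount, 54.0% were higher. This split moved with the scaling, to 43.4% with edgeR's TMM factors, 44.2% with DESeq2's size factors and 62.7% with totals that leave out the 20 genes of the highest share. The median log2 ratio of all genes was 0.04 with column sums and -0.09 with TMM factors, so the signs of small ratios depend on the scaling.

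Low levels in IgG limit the higher group. Of its 367 genes, 203 were under 1 CPM in IgG and 27 were under 3 counts. Among the 12428 genes with at least 1 CPM in IgG, 164 were at least 2-fold higher. The J2 library with ADAR1i-124 lay nearest to IgG, with an SD of 0.63 over the log2 ratios of all genes. The SDs of the other J2 libraries were 0.88 with DMSO, 0.94 with 5-AZA-CdR and 1.04 with the combination. Without the ADAR1i-124 library, 850 genes passed the 2-fold line upward in the other 3, and 400 downward. At the line, Grid1, Gm38125 and Gm37531 lay just inside with lowest log2 ratios of 1.0004, 1.0006 and 1.0021, and Gm48871, Fosb and Gm6806 just outside at 0.9995, 0.9990 and 0.9977. On the lower side Gm5963, Tmx2 and Asnsd1 lay just inside with highest ratios of -1.01, and Cops9, Nxt1 and Rpl39 just outside at -0.9994, -0.991 and -0.987.

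By annotated biotype, the higher group consisted mostly of noncoding annotations with 1 exon rather than of mRNAs. TEC genes, which the annotation keeps as transcribed regions awaiting experimental proof, all with 1 exon here, made up 209 of the 367. Of 741 TEC genes compared, 209 were at least 2-fold higher, none at least 2-fold lower, 644 higher by any amount and 4 lower, with a median of the mean log2 ratio of 1.10. Transcripts annotated as sense_intronic had a similar median, and 115 of 118 lay in an intron of a protein-coding gene on the same strand. Of the 118, 30 were at least 2-fold higher and 104 higher by any amount, none was lower, and their median was 1.11. The median over all genes compared was 0.04.

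Of 11383 protein-coding genes, 69 passed the 2-fold line upward in all 4 and 28 downward, with a median of -0.02. Of 266 lincRNAs, 17 were at least 2-fold higher and the median was 0.62. Of 144 antisense genes, 8 were, with a median of 0.52. Of 732 processed pseudogenes, 23 were at least 2-fold higher and 1 lower, with a median of -0.01, and reads of such copies may belong to their parent genes. The share at least 2-fold higher was 6.39% for lincRNAs, 5.56% for antisense genes and 3.14% for processed pseudogenes. Over all genes it was 2.65%, near that of the processed pseudogenes, and over protein-coding genes 0.606%. The snoRNAs (44 genes, median -0.48) and snRNAs (30 genes, median -0.43) had the lowest medians. Among TEC genes with at least 1 CPM in IgG, 96 of 402 were at least 2-fold higher and the median was 0.99. At a mean of 5 CPM or more, 85 of 187 TEC genes were, and the median was 1.41. A mean over the 5 libraries can be passed through J2 alone. Of the TEC genes past it, 715 also reached 1 CPM in the mean of the 3 total RNA libraries. Of these, 202 were at least 2-fold higher. Genes too low in J2 to pass the first mean stay left out, so this limit does not remove that selection. With TMM factors 180 TEC genes were at least 2-fold higher and with DESeq2's factors 182.

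**Figure D1:**
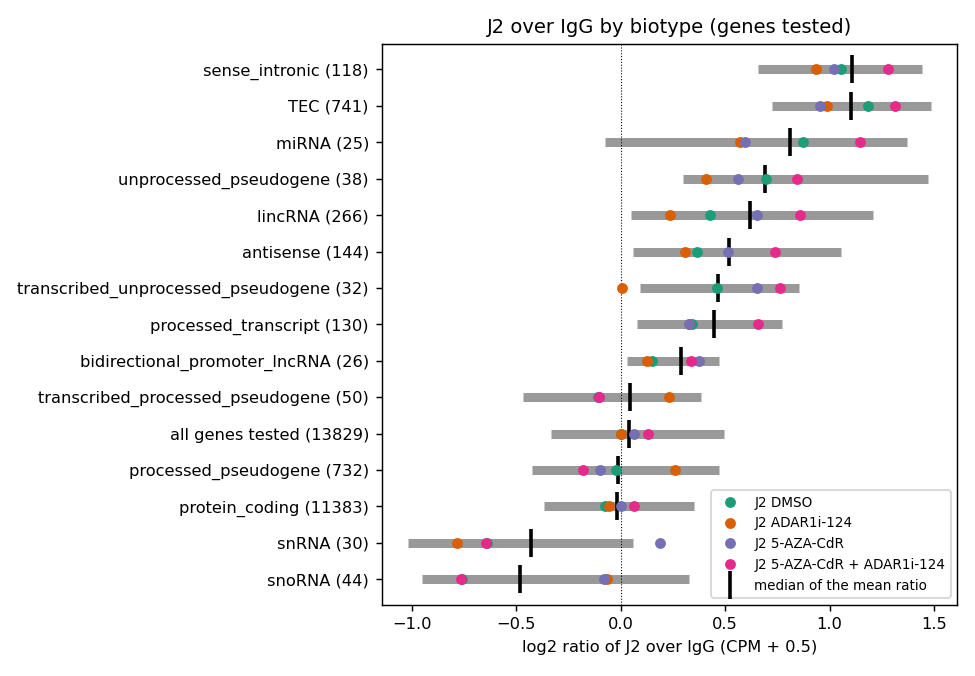
Log2 ratio of J2 over IgG (CPM with 0.5 added) by biotype, with the number of genes in parentheses. Grey bars span the interquartile range of the mean ratio, black lines its median, and dots the median of each J2 library. TEC and sense_intronic genes have medians of 1.10 and 1.11, and all 4 dots of both lie well above the median of all genes at 0.04.

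Gm37206, Gm37983, Gm47615 and Gm37463 were among the TEC genes with the highest ratios. Gm37206 (chr19:4762103-4765171, minus strand, 1 exon) was at 7.05 CPM in IgG and 82.7, 78.1, 47.4 and 74.3 CPM in J2, a mean log2 ratio of 3.204 ± 0.36. The 95% counting intervals of its 4 log2 ratios ran from 2.45 to 3.85. All 4 J2 libraries were also above its total RNA of 22.2, 15.3 and 26.2 CPM.

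Gm37983 (chr9:72315131-72317136, plus strand, 1 exon) was at 1.11 CPM in IgG, from 17 counts, and at 12.6, 16.8, 13.8 and 20.8 CPM in J2. Its mean log2 ratio was 3.33 ± 0.31, with counting intervals, taken without the added 0.5 CPM, from 2.78 to 5.03. Its total RNA of 5.58, 4.09 and 6.91 CPM lay between IgG and J2. Gm26621, a processed transcript of 1 exon on chromosome 15, was at 1.63 CPM in IgG and 15.3, 13.8, 16.5 and 17.5 CPM in J2. It varied least among the J2 libraries of the 12 highest genes, at 2.93 ± 0.14, and its total RNA was at 3.58, 4.26 and 4.51 CPM.

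Position within introns went with a higher ratio. Of 1025 genes compared that lie in an intron of a protein-coding gene on the same strand, 246 were at least 2-fold higher, with a median of 0.97. Of 12804 that do not, 121 were, with a median of 0.01. Of all 367 genes at least 2-fold higher, 67.0% lay in an intron. Within TEC genes the contrast was smaller. Of 570 TEC genes in an intron, 185 were at least 2-fold higher with a median of 1.14, and of 171 elsewhere 24 were, with a median of 0.99.

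Of the 685 intronic TEC and sense_intronic genes, 682 had a host that was compared and could be set beside it. In these 682 pairs with 457 hosts, the intronic gene had the higher mean log2 ratio in 664, was above its host in all 4 J2 libraries in 585 and below it in all 4 in 4. The median ratio was 1.13 for the intronic genes and 0.13 for their hosts, and the median difference within a pair was 1.06, 0.94, 0.89 and 1.11 in the 4 J2 libraries. The median level in IgG was 1.11 CPM for the intronic genes and 62.3 CPM for the hosts. Intronic genes that reached a mean of 1 CPM only through J2 had to have a high ratio. Among the 374 pairs whose intronic gene had at least 1 CPM in IgG, it was above its host in the mean in 364 and in all 4 libraries in 319, with a median difference of 0.93. In the 668 pairs whose intronic gene averaged 1 CPM or more in total RNA, these counts were 651 and 575. Both limits were chosen after seeing the data. They were set on genes already past the mean over the 5 libraries, so they do not remove that selection. No host was at least 2-fold higher. Several pairs share a host, and the libraries are the same for all pairs, so they are no independent replicates. Gene counts do not separate reads of an unspliced host transcript from those of a transcript of its own.

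Gm37983 lies in Zfp280d, whose ratio was 0.45 where that of Gm37983 was 3.33. Gm47615 had a ratio of 3.06 ± 0.21 and its host Herc4, a ubiquitin ligase, 0.28. D130062J10Rik had 3.03 ± 0.41 against 0.63 for Fcho2, and Gm48357 had 2.72 ± 0.24 against -0.07 for Ubqln1. In each of these pairs the ratio of the host was below that of the intronic annotation. Gm36936, with the inverted repeat shown above, had 1.99 and Nedd4 -0.32.

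**Figure D2:**
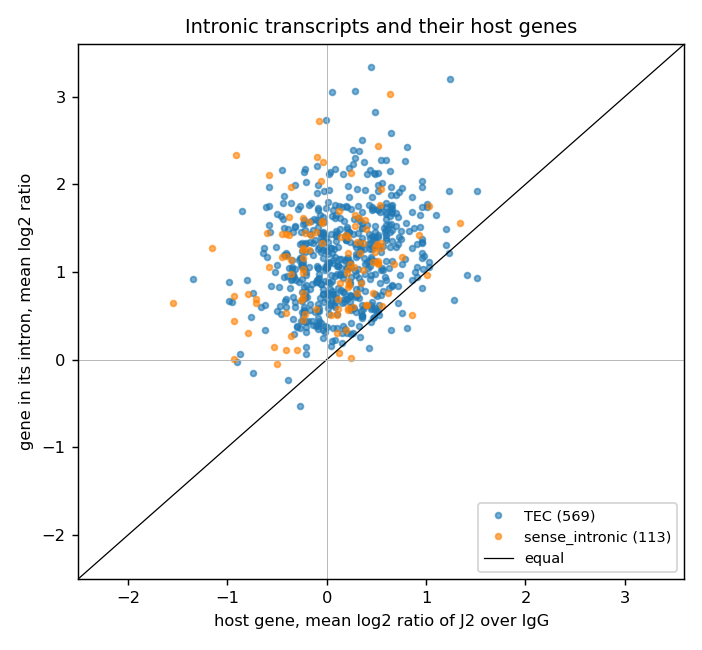
Mean log2 ratio of J2 over IgG of 682 intronic genes (vertical) against that of the gene in whose intron they lie (horizontal). Each point is 1 pair, TEC in blue (569) and sense_intronic in orange (113), and the line marks equal ratios. Of the pairs, 664 lie above the line.

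The level of these intronic genes in total RNA bears on how the ratio is read. TEC genes took 0.140% of all counts in IgG and 0.334% to 0.434% in J2. In the 3 total RNA libraries they took 0.416%, 0.377% and 0.591%. The J2 shares thus lay near those of total RNA, and the IgG share was below both. In Z22 libraries, made with an antibody to Z-form nucleic acid, the TEC share ranged from 0.125% to 0.484%.

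Relative to the median of all genes, TEC genes had a median log2 level in IgG 0.92 below the mean of total RNA (-0.92). In J2 over the total RNA of the same treatment the same median was 0.28 with DMSO, 0.15 with ADAR1i-124 and -0.35 with 5-AZA-CdR. For sense_intronic genes it was -0.88 in IgG. IgG lay below all 3 total RNA libraries in 357 of the 367 genes at least 2-fold higher. It lay above all 3 in 20 of the 35 genes at least 2-fold lower. Over all 13829 genes compared, IgG lay below all 3 in 6608 and above all 3 in 1871. The choice of the 367 and the 35 used the level in IgG, so these counts are a description. Over the 367 genes, the median log2 level relative to all genes was -1.17 for IgG over the mean of total RNA. For J2 over total RNA it was 0.76 with DMSO, 0.38 with ADAR1i-124 and -0.08 with 5-AZA-CdR. The total RNA libraries were not precipitated, and a further one, with the combination, held 1245894 counts and was not used here.

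All 4 J2 libraries were above both IgG, by at least 2-fold, and all 3 total RNA libraries in 43 of the 367 genes, or 11.7%. Among all genes compared, the J2 libraries were above all 3 total RNA libraries in 379, or 2.74%. The 367 were chosen for high values in the same J2 libraries, so these shares are a description and are not compared. Of the 43, 23 were TEC genes, 6 processed pseudogenes and 3 sense_intronic. They include Gm37206, Gm37983, Gm47615, Gm37463, Gm48357, Gm26621, C920009B18Rik and the mitochondrial tRNA gene mt-Tq. Gm47615 stood out most among these TEC genes, with 0.653 CPM in IgG, 9.77, 7.85, 8.27 and 10.96 CPM in J2 and at most 1.76 CPM in total RNA.

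**Figure D3:**
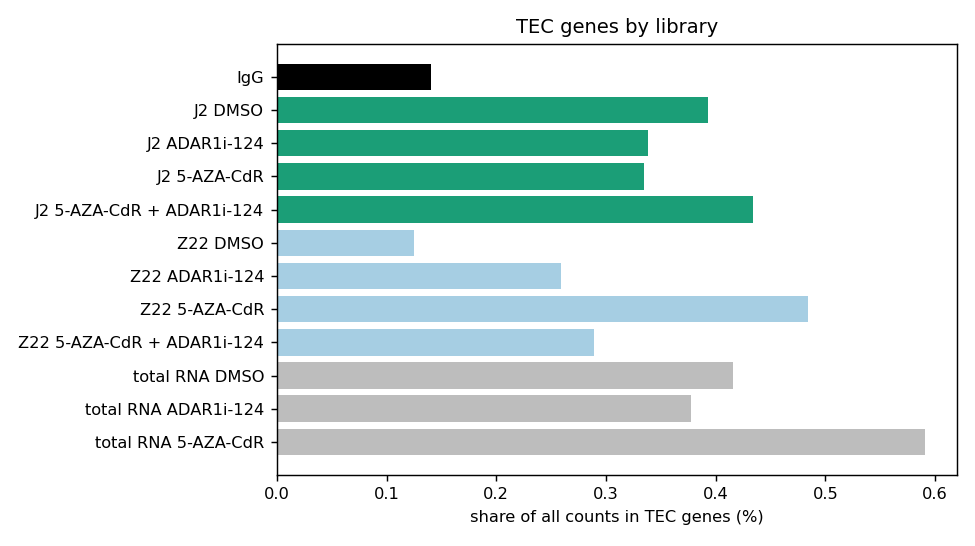
Share of each library's counts that fall in TEC genes, in percent, 1 bar a library. The IgG library (0.140%) lies below all 4 J2 libraries (0.334% to 0.434%) and the 3 total RNA libraries, and above only the Z22 library with DMSO (0.125%).

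Transcripts of the major satellite, the tandem repeat that lies beside mouse centromeres, differed widely between the J2 libraries. Of 9 such loci compared, 3 were at least 2-fold higher in all 4 and 5 more were higher by less. Gm10719, listed at 0 in IgG and DMSO, was not higher in all 4. Over all genes, 2.65% were at least 2-fold higher and 26.5% higher by any amount. Gm26870 (chr9:3000282-3038313, minus strand) has 2692 exonic bases that match themselves best at a shift of 234 bases, the length of that satellite's unit. Gm11168 (chr9:3003346-3006948) is annotated on the plus strand of the same region. Of its 20-base words, 64.5% are the reverse complement of a word of Gm26870 and none is in the same sense. Gm10800 on chromosome 2 has 46.2% of its words complementary to Gm26870. The longest stretch of Gm11168 that is exactly complementary to Gm26870 is given because transcripts of both strands could pair along it. Capitals mark its bases that lie in 20-base words also found in Gm10800.
Gm11168, chr9:3004606-3004840, plus strand: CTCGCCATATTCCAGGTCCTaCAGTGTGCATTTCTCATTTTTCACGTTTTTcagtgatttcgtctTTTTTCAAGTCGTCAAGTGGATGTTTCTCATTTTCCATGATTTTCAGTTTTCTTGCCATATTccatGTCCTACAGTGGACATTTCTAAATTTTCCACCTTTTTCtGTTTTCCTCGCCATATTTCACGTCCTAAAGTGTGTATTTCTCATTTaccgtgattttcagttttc

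Of these 235 bases, 196 were in words shared with Gm10800. The copies are nearly the same, so how reads were divided among them is uncertain, and both Gm26870 and Gm11168 may hold reads of other copies. Whether the counting used the strand is not given in the sources used here, so reads of both strands may not have been separated.

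Gm26870 was at 4.63 CPM in IgG and 29.4, 46.9, 1987 and 1932 CPM in J2. Both libraries with 5-AZA-CdR thus stood far above those without it, and all 4 above IgG. Its total RNA was at 0.529, 0.341 and 13.3 CPM, and Z22 gave 11.8, 11.3, 229 and 752 CPM. All 4 J2 libraries were above total RNA, at a mean log2 ratio over IgG of 5.73 ± 3.30.

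Gm10800 was at 1.44 CPM in IgG, 6.73, 7.09, 2183 and 1082 CPM in J2, and 1.998, 4.2003 and 78.6 CPM in total RNA. Gm11168 had 1 count in IgG and 20, 23, 3395 and 1940 counts in J2. Gm10801, beside Gm10800 on chromosome 2, had 2 counts in IgG and 0.903, 0.417, 207 and 77.9 CPM in J2. In all of them the 5-AZA-CdR library was highest and the combination next. These loci were listed together with ribosomal-RNA-like loci, a name that describes Gm42418 and Gm26917 and not the satellite copies. All 5 listed loci that were compared were higher in all 4 J2 libraries with column sums, and 4 of them with TMM factors, which turn Gm42418 to mixed.

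Gm42418, which overlies a copy of the ribosomal RNA precursor, took 14.2% of the counts in IgG and 15.8% to 18.9% in J2, a mean log2 ratio of 0.26 ± 0.12. Gm26917, at the same kind of locus, was at 1478 CPM in IgG and 3462, 3164, 2757 and 5883 CPM in J2. Its ratio was 1.30 ± 0.48. With the mitochondrial ribosomal RNAs these loci took 19.8% of the counts in IgG, 21.8% to 24.9% in J2 and 0.76% to 2.89% in total RNA.

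Among miRNA annotations, 2 of 25 were at least 2-fold higher, 16 higher by any amount and 4 lower, against 2.65%, 26.5% and 22.5% of all genes. Gm25190 rested on 1 count in IgG. Mir6236 was at 663 CPM in IgG and 3239, 2320, 1360 and 2194 CPM in J2, a ratio of 1.71 ± 0.52, and its total RNA was at 4.17, 5.85 and 0.116 CPM. It was thus far above total RNA in IgG as well as in J2. It was under the 2-fold line with TMM factors. Gm23935 and Gm24270, further miRNA annotations, were at 852 and 383 CPM in IgG, with ratios of 1.37 ± 0.75 and 1.44 ± 0.61. Reads over such short annotations need not come from a mature miRNA, and no mature sequence is shown for that reason.

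A list of long noncoding RNAs, most of them nuclear, held genes on both sides of IgG. Of 15 listed, 10 were compared, of which 1 was at least 2-fold higher, 4 higher by any amount and 2 lower, with a median of 0.12. Over all genes the shares were 26.5% higher and 22.5% lower. The median of the list was -0.0091 with TMM factors and 0.0096 with DESeq2 factors. Neat1, the scaffold of paraspeckles, was at 255 CPM in IgG and 2410, 521, 652 and 935 CPM in J2, a ratio of 1.87 ± 0.97. The DMSO library was well above the other J2 libraries. With TMM and DESeq2 factors Neat1 fell short of the 2-fold line in at least 1 library. Its total RNA was at 1007, 1827 and 2518 CPM.

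Malat1, a transcript of nuclear speckles, was at 3977 CPM in IgG and 18345, 5278, 14604 and 19464 CPM in J2. Its ratio was 1.70 ± 0.88, and the ADAR1i-124 library lay near IgG. Its total RNA was at 9424, 10581 and 31493 CPM. Kcnq1ot1, which silences an imprinted cluster, was at 177 CPM in IgG and 343, 533, 284 and 484 CPM in J2, a ratio of 1.17 ± 0.42. Firre, which binds chromatin, had 1.18 ± 0.74. Gas5 and Snhg1, which are spliced hosts of snoRNAs, were lower in all 4, at -0.45 ± 0.25 and -0.86 ± 0.47.

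Of the 13 mitochondrial mRNAs, 6 were higher in all 4 J2 libraries, none was lower, none passed the 2-fold line in all 4, and the median was 0.47. The background was 26.5% of all genes higher in all 4 and 22.5% lower. Both strands of the mitochondrial genome are transcribed in full, so complementary RNA is made there. The L-strand's mRNA mt-Nd6 (chrM:13552-14070, minus strand) was at 171 CPM in IgG and 337, 478, 487 and 542 CPM in J2. Its ratio of 1.41 ± 0.30 was the highest of the 13 mRNAs, with the lowest library at 0.98, and its total RNA was at 171, 182 and 532 CPM.

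The plus-strand neighbour mt-Nd5 (chrM:11742-13565), which overlaps mt-Nd6 by 14 bases, was at 666 CPM in IgG and 1512, 2573, 958 and 2366 CPM in J2. Its ratio was 1.37 ± 0.66. The mRNAs mt-Nd4l and mt-Nd4, which lie before it on the same strand, were at 1.23 ± 0.22 and 0.94 ± 0.47. The mRNAs mt-Co1 and mt-Co3, for subunits of cytochrome oxidase, were at -0.10 ± 0.26 and -0.10 ± 0.20, with libraries on both sides of IgG. Among the mitochondrial mRNAs, the ratios thus were highest from mt-Nd4l to mt-Nd6. The ribosomal RNAs mt-Rnr1 and mt-Rnr2 were near IgG, at -0.12 ± 0.15 and 0.15 ± 0.06, and with TMM factors neither was higher in all 4 and 1 was lower.

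Of 7 mitochondrial tRNA genes compared, 5 were higher in all 4 and none lower, against 26.5% and 22.5% of all genes, with a median of 0.98. Only mt-Tq, the minus-strand tRNA for glutamine, was at least 2-fold higher. It was at 1.83 CPM in IgG, 6.48, 11.3, 4.81 and 6.20 CPM in J2 and at most 3.07 CPM in total RNA. Of the 4 minus-strand genes compared in this genome, 3 were higher in all 4 with a median of 0.82, and of the 18 plus-strand genes 9 were, with a median of 0.47.

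The protein-coding genes at least 2-fold higher were led by genes whose level also differed among treatments. Tmem176b and Tmem176a, a pair of membrane proteins that are neighbours on chromosome 6, had the largest values by the lowest of the 4 ratios. Tmem176b was at 2.74 CPM in IgG and 102, 36.9, 90.9 and 68.7 CPM in J2, a ratio of 4.43 ± 0.65, with counting intervals from 3.30 to 5.69. Its total RNA was at 167, 15.8 and 110 CPM. Tmem176a was at 1.50 CPM in IgG and 52.7, 20.6, 46.9 and 43.3 CPM in J2, a ratio of 4.29 ± 0.60, with total RNA at 124, 8.46 and 78.4 CPM. For both genes the ADAR1i-124 library was lowest in J2 as in total RNA, and IgG was below every one of them. They are annotated on opposite strands and their ends overlap.

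C3, the central complement protein, was at 0.914 CPM in IgG, from 14 counts, and 122, 6.53, 158 and 200 CPM in J2. Its ratio was 5.68 ± 2.26 and its total RNA was at 34.2, 8.97 and 547 CPM. Lama4, a laminin chain, was at 0.392 CPM in IgG, 28.6, 1.94, 9.55 and 12.7 CPM in J2 and 7.99, 0.908 and 68.0 CPM in total RNA. Of the 69 protein-coding genes, IgG was below all 3 total RNA libraries in 67, and the J2 library nearest to IgG was that with ADAR1i-124 in 45. The ADAR1i-124 library was also nearest in 153 of the 367 genes and in 3243 of the 6777 genes with all 4 libraries on 1 side of IgG. In the 209 TEC genes it was nearest in 75 and the 5-AZA-CdR library in 96.

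Further protein-coding genes of the group were named after their values were seen. Kmt2d, a histone H3K4 methyltransferase, was at 102 CPM in IgG, 423, 262, 276 and 421 CPM in J2 and 269, 592 and 651 CPM in total RNA, a ratio of 1.72 ± 0.38. Srcap, a chromatin remodeller, had 1.52 ± 0.21 and Sbno2, a transcriptional regulator, 1.82 ± 0.37. Cxcl1, a chemokine of neutrophils, was at 24.2 CPM in IgG and 129, 66.8, 320 and 375 CPM in J2, a ratio of 2.86 ± 1.16. Junb, an AP-1 factor, was at 6.39 CPM in IgG and 21.8, 15.7, 31.0 and 80.1 CPM in J2. Their total RNA was at 91.8, 352 and 332 CPM for Cxcl1 and at 2.35, 71.0 and 52.8 CPM for Junb, so that J2 was not above it in every treatment.

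**Figure D4:**
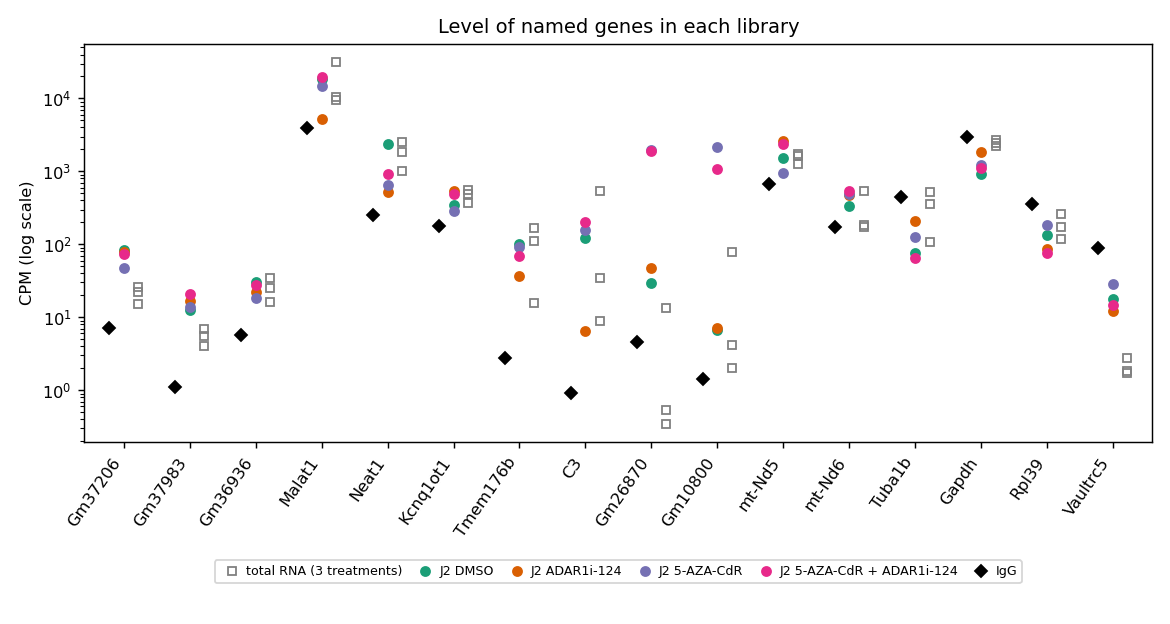
Level in CPM (log scale) of 16 named genes, with IgG as black diamonds, the 4 J2 libraries as coloured dots and the 3 total RNA libraries as open squares. IgG lies below every J2 library from Gm37206 to mt-Nd6 and above every J2 library from Tuba1b to Vaultrc5. For Gm26870 and Gm10800 the J2 libraries with 5-AZA-CdR lie between 1082 and 2183 CPM and the other J2 libraries at 46.9 CPM or lower.

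The lists of ribosomal proteins, housekeeping mRNAs and histones each held more genes lower in all 4 J2 libraries than higher. Of 79 cytoplasmic ribosomal protein genes, 64 were lower in all 4 J2 libraries, none was higher and none passed the 2-fold line, with a median of -0.71. Of 15 abundant housekeeping mRNAs, 10 were lower in all 4 and 1 at least 2-fold, with a median of -0.85. Of 26 replication-dependent histone genes compared, 9 were lower and none higher, with a median of -0.66. The list's median was 0.08 in the ADAR1i-124 library, on the other side of IgG from -0.90 in DMSO, -1.32 in 5-AZA-CdR and -0.78 in the combination. The histone mRNAs end in a stem-loop in place of a poly(A) tail. The background was 22.5% of genes lower in all 4 by any amount. Beyond the counting interval in all 4, 61 ribosomal protein, 10 housekeeping and 1 histone gene were lower, against 11.7% of all genes.

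Tuba1b, an alpha-tubulin, was at 446 CPM in IgG and 76.6, 207, 125 and 64.2 CPM in J2, a ratio of -2.07 ± 0.76, with total RNA at 515, 361 and 108 CPM. Gapdh, a glycolytic enzyme, was at 3002 CPM in IgG and 915, 1856, 1242 and 1111 CPM in J2, a ratio of -1.28 ± 0.43, with total RNA at 2671, 2470.3 and 2255 CPM. The glycolytic genes Ldha, Pgk1 and Eno1 were at -1.41 ± 0.63, -1.43 ± 0.52 and -1.39 ± 0.61. Actb, the cytoskeletal actin, was at 3866 CPM in IgG and 2430, 5288, 2203 and 2641 CPM in J2, so that the ADAR1i-124 library was above IgG and the others below. In Tuba1b and Gapdh all J2 libraries lay below IgG.

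Rpl39, a ribosomal protein of the large subunit, was at 360 CPM in IgG and 135, 85.4, 181 and 76.7 CPM in J2, a ratio of -1.67 ± 0.58 just short of the 2-fold line. It is past that line with TMM factors. Rps21, a ribosomal protein of the small subunit, was at -1.31 ± 0.43. Relative to all genes, ribosomal protein genes had a median log2 level in IgG 1.45 above the mean of total RNA. In J2 over the total RNA of the same treatment it was 0.62, 0.79 and 0.97. These mRNAs were therefore above total RNA in J2 too, and further above it in IgG.

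Hist2h2bb, a histone H2B gene that is not on the histone list counted above, was at 23.0 CPM in IgG and 1.31, 3.26, 2.78 and 0.595 CPM in J2, a ratio of -3.40 ± 0.82. Galm, an enzyme of galactose breakdown, was at 24.4 CPM in IgG and 6.73, 7.43, 8.50 and 7.56 CPM in J2. Its ratio of -1.63 ± 0.13 had the least spread of the 12 lowest genes, with counting intervals from -2.22 to -1.21. Selenoh, a nucleolar selenoprotein, was at -2.11 ± 0.50, Dbi, an acyl-CoA binding protein, at -1.50 ± 0.30, and Bnip3, a mitophagy receptor, at -1.30 ± 0.16. All 4 J2 libraries of each lay below IgG.

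The listed structured noncoding RNAs were not higher as a group. Of 10 structured noncoding RNAs listed, 7 were compared, of which none was higher in all 4, 3 were lower and 1 at least 2-fold lower, with a median of -1.07. Over all genes 22.5% were lower and 0.253% at least 2-fold lower. Vaultrc5, a vault RNA, was at 90.4 CPM in IgG and 17.6, 12.02, 28.9 and 14.7 CPM in J2, a ratio of -2.35 ± 0.53. Its total RNA was at most 2.78 CPM, so that it stood above total RNA in J2 and IgG alike. The 7SL copies Rn7s1 and Rn7s2, RNA of the signal recognition particle, were at -1.71 ± 1.03 and -1.70 ± 0.86. These copies are nearly the same, and their reads may be shared. Rn7sk, the abundant regulator of transcription elongation, was near IgG at -0.11 ± 0.14. Among snRNA genes, Gm25360 was at 51.0 CPM in IgG and 13.8, 14.5, 21.1 and 6.88 CPM in J2. Among snoRNA genes, Snord118, the U8 snoRNA, was at -1.33 ± 0.41.

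Genes known for editing, or with an exon on a region hyper-edited in the study, were near the median of all genes. All exonic reads of a gene were counted here, whereas the study measured precipitation of the edited repeat elements themselves. The edited stretches were not measured apart from the rest of each gene. Of 242 genes with an exon on 1 of the 373 hyper-edited regions of the study's table, 231 were compared. Of these, 2 were at least 2-fold higher, 61 higher and 52 lower by any amount, and the median was -0.02. The shares of 26.4% and 22.5% are near the 26.5% and 22.5% of all genes. The pair that passed the 2-fold line were Gm37206 and C920009B18Rik, an unprocessed pseudogene at 14.7 CPM in IgG and 68.4, 60.5, 62.6 and 97.3 CPM in J2. Both were also above total RNA in all 4 J2 libraries.

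Among further hyper-edited genes, Slc7a11, the cystine transporter, was at 1.52 ± 0.87 and Rpl39 was lower. Of the edited hosts that the study names, Iws1, an elongation factor, was higher in all 4 at 0.45 ± 0.26. Gnl3l and Wdr76 were at -0.27 ± 0.25 and -0.40 ± 0.77, with libraries on both sides of IgG. Of 22 conserved targets whose protein is recoded by editing, 13 were compared, of which 4 were higher and 1 lower, against 26.5% and 22.5% of all genes, with a median of 0.19. Cdk13, a transcription kinase, was at 0.33 ± 0.13. With TMM factors 2 of the 13 were higher.

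The genes that sense and bind double-stranded RNA were listed for their own mRNA. Over all genes, 26.5% were higher in all 4 and 22.5% lower. Of 15 sensor genes compared, none was higher in all 4 and 1 lower, and the median was 0.25. Of 16 genes for double-stranded RNA binding proteins, 2 were higher and 3 lower, with a median of -0.02, and with TMM or DESeq2 factors none was higher and 4 were lower. Of 20 interferon-stimulated genes, none was higher and 2 lower, Cxcl10 and Ifit2, with a median of 0.05, which was -0.085 with TMM factors. The ADAR1i-124 library was below IgG in all 20 interferon-stimulated genes, all 15 sensors and 6 of the 16 binding proteins, against 6890 of all 13829 genes. The other 3 libraries were above IgG at the same time in 15 of the 20, 12 of the 15 and 2 of the 16, against 1547 of 13829 genes, or 11.2%, overall.

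Zbp1, the sensor of Z-form nucleic acid, was at 9.27 CPM in IgG and 45.2, 1.60, 130 and 118 CPM in J2. Its total RNA was at 25.1, 0.681 and 111 CPM, in the same order. Irf7, a factor of the interferon response, was at 56.5 CPM in IgG and 127, 13.3, 403 and 357 CPM in J2, with total RNA at 83.6, 0.851 and 225 CPM. Cxcl10 was at 127 CPM in IgG and 58.1, 9.17, 85.6 and 80.1 CPM in J2. For Zbp1 and Irf7 the IgG value lay between the ADAR1i-124 library and the other J2 libraries, and for Cxcl10 above them all.

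Features of the transcripts that played no part in choosing them were then compared. Over 11370 protein-coding genes of the nucleus in 10 equal groups by exonic length, the median log2 ratio went from -0.36 in the shortest (165 to 1875 bases) to 0.24 in the longest (10169 to 123179 bases). In the shortest group 92 genes were higher in all 4 and 537 lower, and in the longest 459 were higher and 72 lower. The shortest group was below the longest in each J2 library. In 5 equal groups by GC content the medians were -0.03, -0.08, -0.05, -0.02 and 0.12, from the lowest to the highest GC. Ribosomal protein and histone genes had median exonic lengths of 1770 and 678.5 bases, and for these lists length and identity cannot be told apart here. The median of the housekeeping list was 3324 bases.

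Only the longest exact inverted repeat of each gene was used, and simple repeats were left out. Such repeats of at least 20 bases were found in the exons of 3.27% of all genes compared. They were found in 17 of the 367 genes at least 2-fold higher (4.63%) and in none of the 35 at least 2-fold lower. Within TEC genes they were in 13 of the 209 at least 2-fold higher (6.22%) and in 5 of the 435 higher by less (1.15%). They were in 3 of the 93 not on 1 side of IgG in all 4 (3.23%), against 21 of all 741 (2.83%). Within protein-coding genes they were in 1 of the 69 (1.45%) and in 5.50% of those higher by less, against 3.66% of all. Long genes hold more repeats. In the longest of the 10 groups the median was 0.21 for protein-coding genes with such a repeat and 0.25 for those without. Protein-coding genes with an exon over at least 100 bases of a gene on the other strand (1381) had a median of -0.08, and the 10002 others -0.01.

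**Figure D5:**
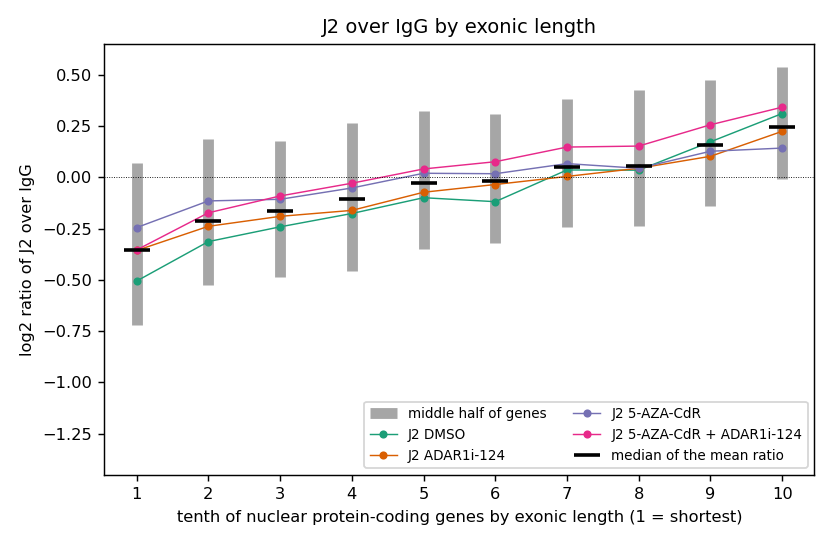
Log2 ratio of J2 over IgG against 10 groups of nuclear protein-coding genes by exonic length, 1 being the shortest. Grey bars span the interquartile range of the mean ratio over the genes of a group, black lines its median and coloured dots the median of each J2 library. The median goes from -0.36 in the shortest group to 0.24 in the longest.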

How the data were processed

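The authors mapped reads with STAR in snakePipes to mm10, the build named in the submitters' processing notes, and deposited raw counts per gene, not normalized, in 1 table. The counting tool and its strand setting are not given in the sources used here. Of 54532 identifiers, 54495 matched GENCODE mouse release 21 without their version. Counts were divided by the column sum to CPM, 0.5 CPM was added before log2, and genes that reached a mean of 1 CPM over the 5 libraries were compared. A gene was called higher or lower only if all 4 J2 libraries were on that side of IgG. No p-value was computed. Counting intervals are exact binomial at 95% for each J2 library against IgG and cover counting error only, since the reads carry no molecular identifiers. They are taken on CPM with nothing added, so at few counts they need not centre on the printed ratio. A floor of 3 counts was taken.

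The members and gene lists were chosen with earlier results of these data known. Named genes are the 12 highest by the lowest of the 4 ratios and the 12 lowest by the highest, where the mean reached 10 CPM. The rule adds the 3 most extreme genes in each direction of each biotype with at least 10 genes, all members of the mitochondrial, structured, nuclear noncoding, edited host and ribosomal-RNA-like lists, at most 5 of any other list, and Actb and Gapdh. Lama4, Cxcl1, Junb, Kmt2d, Sbno2, Srcap, the mitochondrial tRNAs, Gm23935, Gm24270, and the genes with printed inverted repeats other than Neat1 were named after their values were seen. Some genes that the rule names are not reported here.

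A gene in an intron lies within the span of a protein-coding gene on its strand and touches none of its exons, in GENCODE coordinates. A gene of more than 1 exon may thus lie across more than 1 intron, and introns of noncoding genes were not used. Exons were intersected with bedtools 2.31.1. Exon sequences were read from RefSeq GRCm38.p6. Inverted repeats were searched from seeds of 14 bases, and the longest of each gene was kept. A gene whose longest was a simple repeat was counted as having none. Hyper-edited regions are coordinates from the study's table. Scaling factors alone were taken from edgeR 4.0.16 and from DESeq2 1.42.0 (R 4.3.3). The scripts ran in Python 3.11.15 and were tested on simulated data.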

Additional observations from a re-analysis of the deposited data

How the results depend on the processing

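The count of genes at least 2-fold higher, 367, was 314 with TMM factors, 312 with DESeq2's size factors and 534 with totals without the 20 highest genes. Of the 314 and 312 genes, 312 and 312 were among the 367. It was 630 with a pseudocount of 0.1 CPM, 90 with 2 CPM, 60 at a mean of at least 10 CPM, 69 for protein-coding genes, 935 at a 1.5-fold line and 24 at 4-fold. Chosen after seeing the data, IgG of at least 1 CPM left 164. The count at least 2-fold lower, 35, was 52 with TMM and 55 with DESeq2 factors, which include all 35, 20 with a pseudocount of 2 CPM, 19 at a mean of at least 10 CPM, 308 at 1.5-fold and 1 at 4-fold. Genes higher by any amount, 3661, were 1789 at a mean of at least 10 CPM, 5992 without a filter and 2361 for protein-coding genes. The median log2 ratio of all genes, 0.04, was -0.087 with TMM factors, -0.069 with DESeq2 factors, 0.13 without the 20 highest genes and -0.043 at a mean of at least 10 CPM. Leaving out 1 J2 library gave 366 to 850 genes at least 2-fold higher and 36 to 400 lower, with 850 and 400 without ADAR1i-124, 68 lower without DMSO and 78 lower without 5-AZA-CdR. By any amount it gave 3615 to 5266 higher and 3313 to 4438 lower, and a median of 0.0068 to 0.07. Fewer libraries make a call easier by construction, and the cause of the other shifts was not tested. Genes higher against lower by any amount, 3661 against 3116, were 3016 against 3936 with TMM factors and 3080 against 3884 with DESeq2 factors. Of the medians of biotypes, 132 stayed within the spread between libraries and 33 moved. For lists these were 140 and 3, and for named genes 2218 and 97. No paired analysis was possible because the libraries have no replicate numbers and the IgG library is single. The IgG library could not be left out, since every ratio rests on it.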
